A study of Mus musculus with 10 samples.

Results

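The genes of fatty acid and triglyceride synthesis were examined in mouse livers with and without a deletion of Dicer1, the enzyme that cuts precursor hairpins into mature microRNAs. The list held 35 genes of known role in the pathway, and it was drawn up with earlier results of these data known. Of these, 31 had a probe set in the array annotation used here, out of 12366 genes measured in all. The other 4, G6pdx, Acsl1, Mogat1 and Pnpla3, were not analysed here. Where a gene had several probe sets, its brightest one on average represented it.

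The mutant group was 5 DicerloxP/loxP;Afp-Cre+ mice, which carry floxed alleles of Dicer and a Cre recombinase driven by regulatory sequence of the alpha-fetoprotein gene, a gene of the fetal liver. They were compared with 5 control mice, whose genotype the labels do not state. All animals were 28 days old, of mixed strain, and had been fasted for 5 hours, and total RNA of each liver was read on 1 Affymetrix array. The labels used here name no sex, litter or batch. The deletion is not expected in cells that never expressed the transgene, and RNA of the whole liver includes such cells. In whole liver RNA, fewer cells of a type and less RNA per cell cannot be told apart.

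Fatty acid synthesis starts from citrate, which leaves the mitochondrion through a carrier and is split into acetyl-CoA in the cytosol. Carboxylation and repeated condensation then build palmitate with NADPH as the reductant, elongases and desaturases modify it, and acyl-CoA synthetases activate fatty acids for use. Acyltransferases, lipins and diacylglycerol acyltransferases attach the acyl chains to glycerol to form triglyceride. In liver the pathway is driven by insulin through the transcription factor SREBP-1c and by glucose through ChREBP, and its transcripts fall in fasting.

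The deleted gene was lower in every mutant liver. Values are log2 array signals, and every difference below is mutant minus control on that scale. Dicer1 ran from 5.42 to 5.94 in mutants, against 7.99 to 8.10 in controls, on 1 probe set, and from 6.97 to 7.20 in mutants, against 7.91 to 8.18 in controls, on the other. The differences were -2.31 (SE 0.10, adjusted p = 4.10e-05 over all probe sets by limma) and -1.03 (SE 0.07, adjusted p = 0.000678). The labels do not place these probe sets inside or outside the deleted exons. Mutant replicate 5 was as low in Dicer1 as the others (5.84 and 6.98) but stood closer to the controls for many genes below.

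Of the 31 members, 8 were lower and 2 were higher in mutant liver at an adjusted p under 0.05, by limma, adjusted for the 12366 genes tested by the Benjamini-Hochberg method, and 21 did not pass. The lower ones make 25.8% of the members, beside 11.5% of all genes, and the higher ones 6.5%, beside 8.62% of all genes. Given how the list was drawn up, these shares are a description and not a test. The members called lower were the citrate carrier Slc25a1, the malic enzyme Me1, the carboxylase Acacb, the elongases Elovl3 and Elovl5, the desaturases Scd1 and Fads1 and the acyltransferase Agpat3. Those called higher were the acyl-CoA synthetase Acsl4 and the acyltransferase Agpat1. The median difference of the members was -0.24, beside -0.01 over all genes. Mutants lay below all controls for 5 members (16.1%, beside 6.99% of all genes), and above all controls for 0 members, beside 6.17% of all genes. These 5 were Slc25a1, Me1, Acacb, Elovl3 and Scd1.

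**Figure D1:**
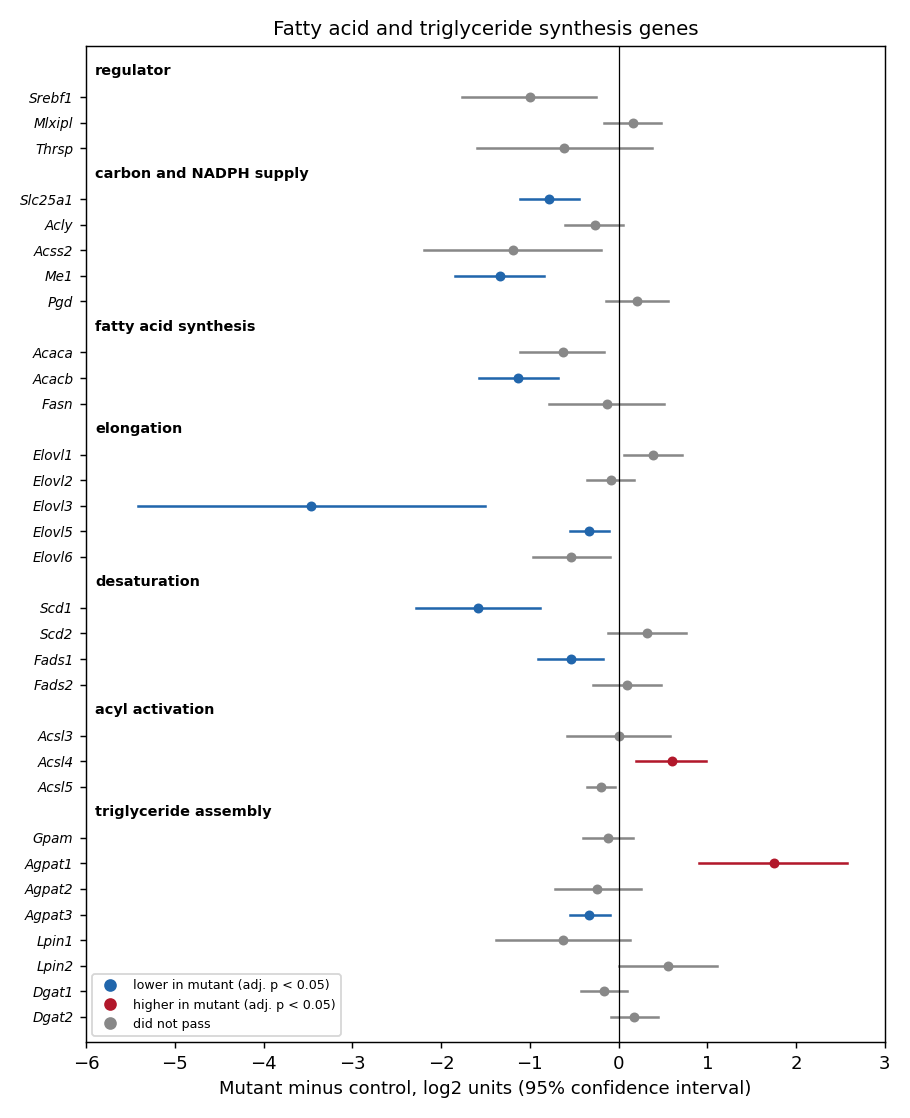
Difference between mutant and control liver for the 31 members, grouped by role, in log2 units on the horizontal axis, with the 95% confidence interval from limma (5 livers in each group). Blue marks the 8 genes called lower, red the 2 called higher and grey the rest. Elovl3 has the widest interval, from -5.41 to -1.50.

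None of the 3 regulators passed the test by limma, and 1 of them, Srebf1, had an unadjusted p under 0.05. Srebf1, which encodes SREBP-1, stood at 9.18, 9.09, 9.96, 8.70 and 10.56 in mutant replicates 1 to 5, against 10.20, 10.69, 10.94, 10.20 and 10.47 in control replicates 1 to 5. Of the mutants, 4 lay below every control and replicate 5, at 10.56, lay inside the control range. The difference was -1.0 (SE 0.34, 95% interval -1.76 to -0.25, adjusted p = 0.0623 by limma). It passed in 4 of the 21 alternative fits and not in the other 17, where the adjusted p reached 0.132. Without mutant replicate 5 it was -1.27 (SE 0.26, adjusted p = 0.00746), and it also passed with the array median subtracted (adjusted p = 0.0400), with array weights (0.0268) and with dim genes left out (0.0310).

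Mlxipl, which encodes ChREBP, had 11.18, 11.39, 11.45, 10.87 and 10.89 in mutants, against 11.09, 10.97, 10.65, 11.19 and 11.08 in controls. The groups overlapped, and the interval of the difference ran from -0.16 to 0.48. Thrsp, the thyroid hormone responsive Spot 14 protein that accompanies high rates of lipogenesis, averaged 13.03 ± 0.88 in mutants and 13.64 ± 0.60 in controls (SD, n = 5 each). Its difference of -0.61 had an interval from -1.60 to 0.38, so neither direction is resolved with 5 livers a group.

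The genes that bring carbon and NADPH to the cytosol held 2 of the 8 lower calls, among 5 measured. That is 40.0% of them, beside 11.5% of all genes. Slc25a1, the mitochondrial citrate carrier, stood at 11.15, 10.65, 11.02, 10.84 and 11.49 in mutants, against 11.67, 12.02, 11.70, 11.81 and 11.85 in controls. Every mutant lay below every control, with replicate 5 the closest. The difference was -0.78 (SE 0.15, adjusted p = 0.0107), a mutant level of 0.583 times that of controls. Me1, the cytosolic malic enzyme that yields NADPH, stood at 9.75, 9.28, 10.06, 10.16 and 10.08 in mutants, against 11.49, 11.36, 10.67, 11.60 and 10.92 in controls. The groups did not overlap, and mutant replicate 5 was as low as replicates 3 and 4. The difference was -1.34 (SE 0.22, adjusted p = 0.00764), and the other probe set of Me1 differed by -0.69.

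Acss2, which makes acetyl-CoA from acetate, was the most uneven of this group. It had 10.52, 9.21, 10.16, 9.61 and 11.95 in mutants, against 11.41, 11.81, 11.37, 11.31 and 11.52 in controls. Mutants 1 to 4 lay below all controls, while mutant replicate 5 lay above them all. The difference was -1.19 (SE 0.44, adjusted p = 0.0865), and without that liver it was -1.61 (SE 0.25, adjusted p = 0.00225). It passed in 3 of the 21 alternatives, and in the other 18 its adjusted p reached 0.178. Acly, the citrate lyase, had 12.12, 11.92, 12.18, 11.42 and 12.07 in mutants, against 12.19, 12.23, 12.22, 12.00 and 12.42 in controls. Its groups overlapped and its difference was -0.27 (SE 0.14, adjusted p = 0.213), with 5 probe sets between -0.54 and -0.01. The others differed by -0.42 (average signal 11.83), -0.54 (9.45), -0.05 (3.73) and -0.01 (2.90), so the values near 0 came from the dimmest ones. Pgd, a dehydrogenase of the pentose phosphate pathway, differed by 0.21 (interval -0.14 to 0.56), and its 4 probe sets ran from 0.14 to 0.28.

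**Figure D2:**
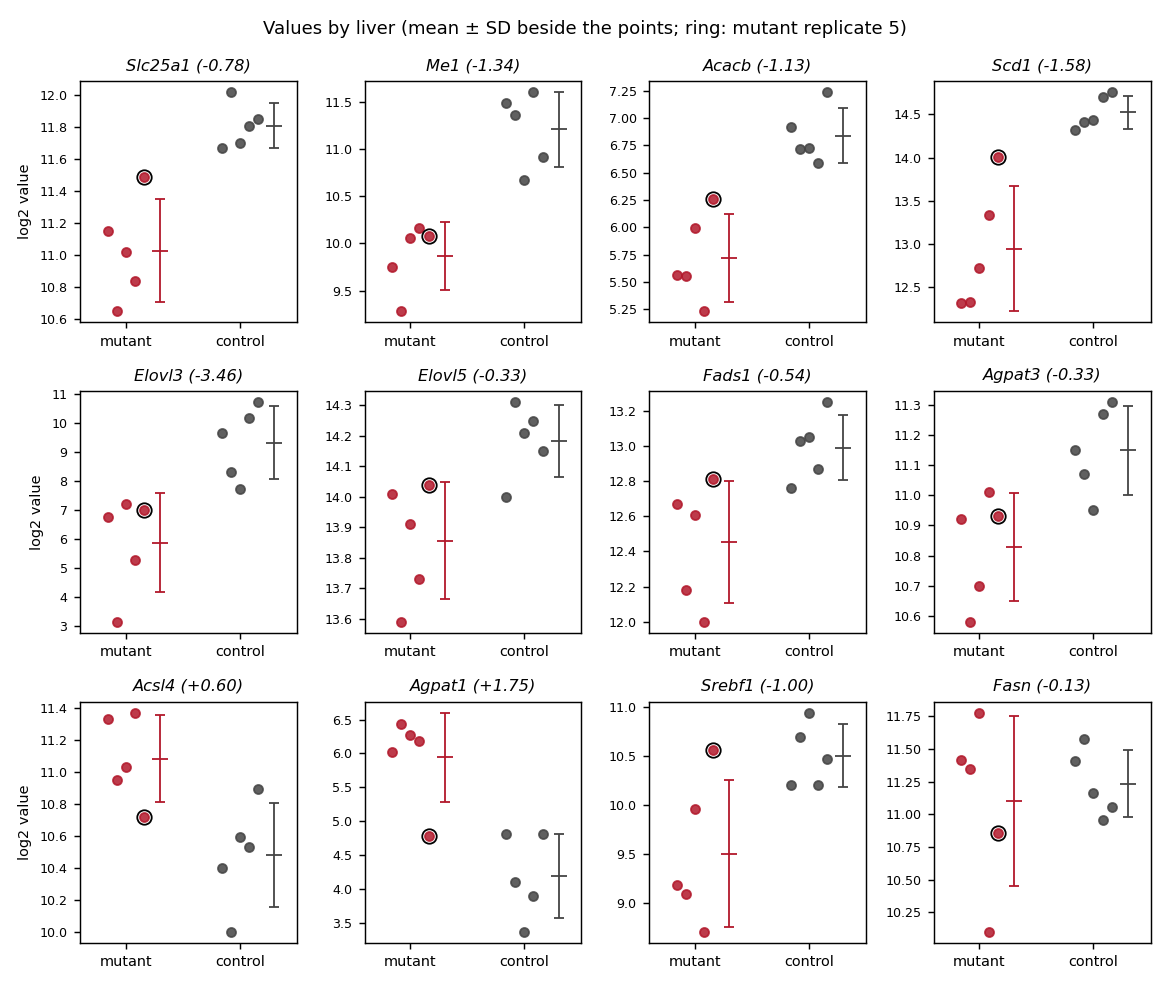
Log2 values of the 10 members that passed the test and of Srebf1 and Fasn in each liver, mutants on the left and controls on the right of each panel, with the mean and SD (n = 5) beside the points and the difference in the title. Vertical axes differ between panels and do not start at 0. The ringed point is mutant replicate 5, which is the highest mutant for Slc25a1, Acacb, Scd1, Elovl5, Fads1 and Srebf1 and the lowest for Acsl4 and Agpat1.

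Of the 3 genes of the synthesis steps themselves, 1 passed the test, as lower (33.3%, beside 11.5% of all genes). Acacb, the acetyl-CoA carboxylase at the mitochondrial surface, whose malonyl-CoA restrains fatty acid oxidation, stood at 5.56, 5.55, 5.99, 5.23 and 6.26 in mutants, against 6.92, 6.72, 6.73, 6.59 and 7.24 in controls. The groups did not overlap, and the difference was -1.13 (SE 0.20, adjusted p = 0.00869). Acaca, the cytosolic carboxylase that feeds synthesis, stood at 9.47, 9.21, 9.62, 8.41 and 9.11 in mutants, against 9.87, 10.04, 9.74, 9.82 and 9.52 in controls. Only mutant replicate 3 reached into the control range. The difference of -0.63 (SE 0.21, adjusted p = 0.0608) passed without mutant replicate 3 (adjusted p = 0.0468) and with dim genes left out (0.0324). It did not pass in the other 19 of the 21 alternatives, where the adjusted p reached 0.12.

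Fasn, the multienzyme that builds palmitate, did not pass. It stood at 11.42, 11.35, 11.78, 10.10 and 10.86 in mutants, against 11.41, 11.58, 11.16, 10.96 and 11.06 in controls. Mutant replicate 4 was the lowest of all livers and mutant replicate 3 the highest. The difference was -0.13 (SE 0.29, adjusted p = 0.808) with an interval from -0.78 to 0.51, and it was 0.12 without mutant replicate 4. The change of Acacb relative to Acaca was -0.49 (SE 0.26), and the groups overlapped.

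Among the 5 elongases, which add carbon units to an existing chain, 2 were lower (40.0%, beside 11.5% of all genes). Elovl3, an elongase of saturated and monounsaturated chains with male-biased expression in adult mouse liver, stood at 6.75, 3.15, 7.20, 5.28 and 7.01 in mutants, against 9.66, 8.33, 7.75, 10.20 and 10.73 in controls. The groups did not overlap but each spread widely, and the value of mutant replicate 2 is under 3.6, the 25th percentile of all array values. The difference was -3.46 (SE 0.87, adjusted p = 0.0253). Leaving out mutant replicate 4, or control replicate 1, 4 or 5, ended the call, with adjusted p from 0.0523 to 0.0602.

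Signal of 6 probe sets for Y-linked genes averaged 6.10 to 6.27 in mutants 1, 3 and 4 and controls 1, 4 and 5, and 3.08 to 3.40 in mutants 2 and 5 and controls 2 and 3. The 2 lowest controls for Elovl3, at 8.33 and 7.75, were the 2 with low Y-linked signal. Among mutants the 2 livers with low signal held the lowest Elovl3 value, 3.15 in replicate 2, and the second highest, 7.01 in replicate 5. With this signal as a covariate the Elovl3 difference was -3.50 (SE 0.73, adjusted p = 0.0182). The calls of Elovl5 and Fads1, described next, were lost (adjusted p = 0.0588 and 0.0628). Their differences hardly moved, at -0.32 (SE 0.10) for Elovl5 and -0.54 (SE 0.17) for Fads1, beside -0.33 and -0.54 without the covariate. Both groups held 3 livers with high signal and 2 with low signal.

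Elovl5, which elongates polyunsaturated chains, stood at 14.01, 13.59, 13.91, 13.73 and 14.04 in mutants, against 14.00, 14.31, 14.21, 14.25 and 14.15 in controls. Control replicate 1 lay among the mutants. The difference was small, at -0.33 (SE 0.10, adjusted p = 0.0441), and of the 10 fits with 1 array left out it passed only in those without mutant replicate 5 or control replicate 1. In the rest its adjusted p reached 0.0979, and it was 0.0946 with quantile normalization. Its other probe set differed by -0.35.

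Elovl6, which extends palmitate to stearate, ran from 8.90 to 9.95 in mutants, against 9.68 to 10.05 in controls. Its difference of -0.53 (SE 0.19, adjusted p = 0.0802) passed without mutant replicate 3 (adjusted p = 0.0261) and with dim genes left out (0.0457). It did not pass in the other 19 of the 21 alternatives, where the adjusted p reached 0.2. Elovl1, an elongase of very long saturated chains, had the opposite sign at 0.39 (SE 0.15, adjusted p = 0.0924), and its 3 probe sets lay between 0.35 and 0.39. It passed without mutant replicate 5 (adjusted p = 0.0380), without control replicate 5 (0.0413) and with array weights (0.0269). In the other 18 of the 21 alternatives Elovl1 did not pass, with adjusted p up to 0.177. Elovl2, which acts on long polyunsaturated chains, differed by -0.09 (interval -0.36 to 0.18).

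Of the 4 desaturases, which introduce double bonds, 2 were lower. Scd1, the stearoyl-CoA desaturase of the hepatocyte, stood at 12.32, 12.33, 12.72, 13.34 and 14.01 in mutants, against 14.32, 14.41, 14.44, 14.70 and 14.76 in controls. Every mutant lay below every control, and the change in mutant replicate 5 was 0.28 times the mean change in mutants 1 to 4. The difference was -1.58 (SE 0.31, adjusted p = 0.0116), a mutant level of 0.335 times that of controls, with both probe sets at -1.58. Without mutant replicate 5 it was -1.85 (SE 0.21).

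Scd2, a desaturase of the same cluster on chromosome 19, with only Scd4 between them among protein-coding genes, ran from 6.53 to 7.32 in mutants, against 6.16 to 6.94 in controls. Its difference was 0.32 (SE 0.19, adjusted p = 0.282). Members of this cluster have similar sequences, and Scd3 and Scd4 were not analysed here. The change of Scd1 relative to Scd2 was -1.9 (SE 0.28), with no overlap between groups, and is given without a test because the pair was chosen after its values had been seen.

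Fads1 and Fads2 encode the delta-5 and delta-6 desaturases of polyunsaturated fatty acids, and no protein-coding gene lies between them on chromosome 19. Fads1 stood at 12.67, 12.18, 12.61, 12.00 and 12.81 in mutants, against 12.76, 13.03, 13.05, 12.87 and 13.25 in controls. Only mutant replicate 5 exceeded a control. The difference was -0.54 (SE 0.16, adjusted p = 0.0471), and of the 10 fits with 1 array left out it passed in 1, that without mutant replicate 5, while its adjusted p reached 0.103 in the others. A second probe set differed by 0.15, but its average signal of 1.99 lay under 3.6, the 25th percentile of all array values, beside 12.72 for the first. The mean of both probe sets did not pass (-0.20, adjusted p = 0.368).

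Fads2 ran from 11.61 to 12.50 in mutants, against 11.59 to 12.05 in controls, a difference of 0.10 (interval -0.29 to 0.48). Its 3 probe sets lay between -0.13 and 0.21. The change of Fads1 relative to Fads2 was -0.64 (SE 0.16), with no overlap between groups, and the pair was chosen in the same way, as was that of Acacb and Acaca.

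**Figure D3:**
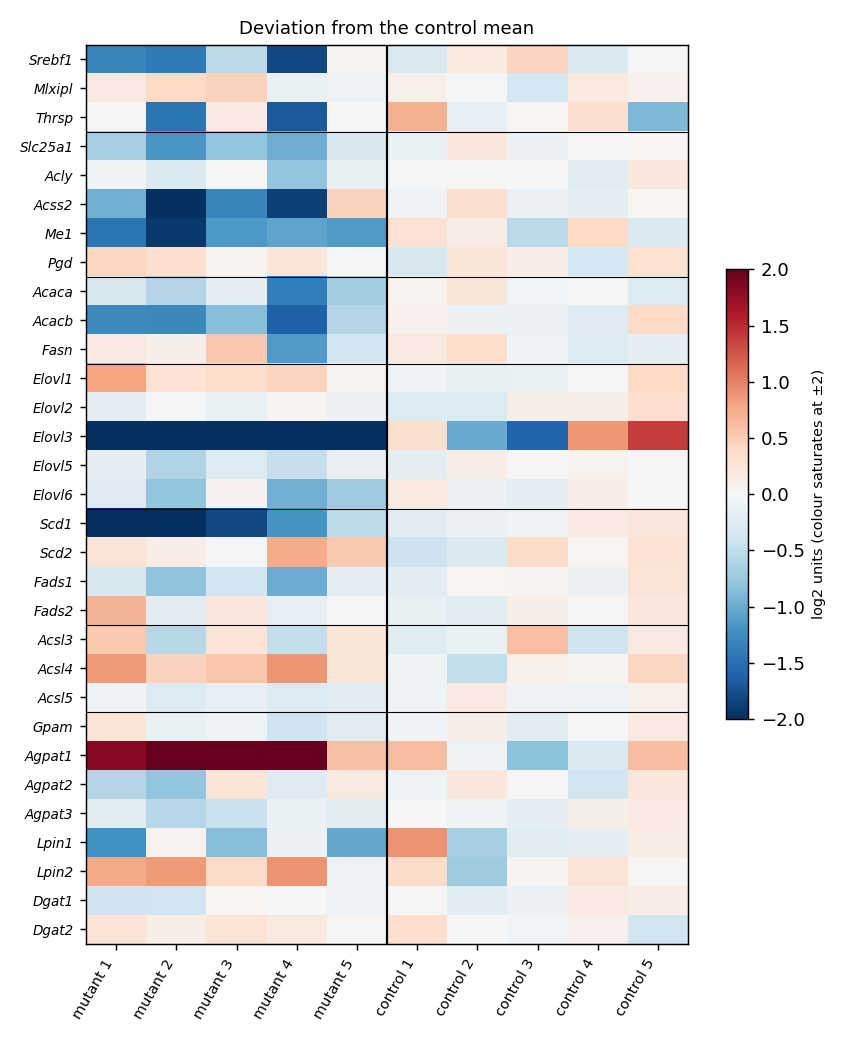
Deviation of each member from its control mean in each liver, in log2 units, with mutants on the left of the vertical line and controls on the right; horizontal lines part the roles and colour saturates at 2 units. Scd1, Acss2 and Srebf1 are palest in mutant replicate 5 among the mutants, whereas Me1 there is as low as in mutant replicates 3 and 4.

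Of the 3 acyl-CoA synthetases, 1 passed the test, as higher (33.3%, beside 8.62% of all genes). Acsl4, which prefers arachidonic acid, stood at 11.33, 10.95, 11.03, 11.37 and 10.72 in mutants, against 10.40, 10.59, 10.53 and 10.89 in control replicates 1, 3, 4 and 5 and the lowest value, 10, in control replicate 2. Control replicate 5 exceeded 1 mutant, replicate 5. The difference was 0.60 (SE 0.18, adjusted p = 0.0421), and of the 10 fits with 1 array left out it passed only in those without replicate 5 of either group. In the rest its adjusted p reached 0.0943. The 3 probe sets disagreed in sign, at 0.60 (average signal 10.78), 0.49 (8.53) and -0.26 (6.26, SE 0.32). The last was the dimmest and the most variable one. Acsl5, a synthetase of mitochondria and endoplasmic reticulum, differed by -0.20 (SE 0.07, adjusted p = 0.0681). Acsl3, a synthetase of lipid droplets, had an interval from -0.58 to 0.58.

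Triglyceride assembly held 1 lower and 1 higher call among 8 measured genes, with a median of -0.14. That is 12.5% in each direction, beside 11.5% lower and 8.62% higher over all genes. Agpat1, an acyltransferase that makes phosphatidic acid, stood at 6.02, 6.44, 6.27, 6.19 and 4.79 in mutants, against 4.81, 4.10, 3.37, 3.90 and 4.81 in controls. Mutants 1 to 4 lay above every control, and mutant replicate 5 lay just under the 2 highest controls. The difference was 1.75 (SE 0.37, adjusted p = 0.0150), with 1.91 on the other probe set, and 2.03 (SE 0.29, adjusted p = 0.00162) without mutant replicate 5. The control values lie near the low end of the array, and 1 of them is under 3.6.

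Of the other acyltransferases of this family measured, Agpat3 was lower and Agpat2, Agpat4 (0.00) and Agpat5 (-0.40, adjusted p = 0.0613) did not pass. Agpat3 stood at 10.92, 10.58, 10.70, 11.01 and 10.93 in mutants, against 11.15, 11.07, 10.95, 11.27 and 11.31 in controls. Mutant replicate 4 exceeded 1 control, and the difference was -0.33 (SE 0.10, adjusted p = 0.0498). It passed without mutant replicate 5 or without control replicate 3, and in the other 8 fits with 1 array left out its adjusted p reached 0.107. The 4 probe sets ran from -0.33 to 0.21, and their mean gave -0.06 (adjusted p = 0.702). Agpat2, the enzyme lost in a congenital lipodystrophy of humans, ran from 10.93 to 11.96 in mutants, against 11.35 to 11.94 in controls, a difference of -0.24 (interval -0.72 to 0.25).

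The remaining steps of triglyceride assembly did not pass. Gpam, the mitochondrial acyltransferase of the first step, differed by -0.12 (interval -0.40 to 0.16). The phosphatidate phosphatases Lpin1 and Lpin2 had opposite signs, at -0.63 (SE 0.33, adjusted p = 0.219) and 0.56 (SE 0.24, adjusted p = 0.134). The 4 probe sets of Lpin2 lay between 0.50 and 1.01, and its difference was 0.72 (adjusted p = 0.0370) without mutant replicate 5. In the other 20 of the 21 alternatives Lpin2 did not pass, with adjusted p up to 0.256. Dgat1 and Dgat2, which add the last acyl chain, differed by -0.16 (interval -0.42 to 0.10) and 0.18 (interval -0.09 to 0.44).

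Promoter stretches are shown for the lower members with a single RefSeq start and at least 1 match to a searched motif, Slc25a1, Acacb and Elovl5, beside Fasn, which did not pass. Each is the 250 bases before the start on RefSeq GRCm38.p6, written 5′ to 3′ on the strand of the gene. Capitals mark CCAAT (the NF-Y box, which works beside SREBP sites), CACGTG (an E-box, bound by SREBP-1 and ChREBP) and GGGCGG (the Sp1 box), searched on both strands. Of the members called lower, 5 had a promoter in the table used here. Agpat3 had no match in this window, and Me1 has several starts.
Slc25a1, chr16:17928220-17928469, minus strand: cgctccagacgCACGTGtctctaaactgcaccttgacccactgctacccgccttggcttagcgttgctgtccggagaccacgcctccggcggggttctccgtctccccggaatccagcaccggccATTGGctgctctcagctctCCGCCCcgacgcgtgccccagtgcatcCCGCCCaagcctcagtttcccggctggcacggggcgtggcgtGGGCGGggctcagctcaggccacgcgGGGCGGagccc
Acacb, chr5:114165268-114165517, plus strand: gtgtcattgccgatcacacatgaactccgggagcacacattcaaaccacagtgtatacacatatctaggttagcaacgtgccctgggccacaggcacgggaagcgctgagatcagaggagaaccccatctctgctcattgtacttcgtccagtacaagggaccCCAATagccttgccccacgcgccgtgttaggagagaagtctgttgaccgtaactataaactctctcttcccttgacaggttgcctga
Elovl5, chr9:77917115-77917364, plus strand: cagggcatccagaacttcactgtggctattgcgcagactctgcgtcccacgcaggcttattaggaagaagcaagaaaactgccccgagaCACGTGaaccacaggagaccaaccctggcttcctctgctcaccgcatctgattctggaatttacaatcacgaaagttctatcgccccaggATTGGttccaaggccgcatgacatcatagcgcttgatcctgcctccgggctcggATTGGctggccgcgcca
Fasn, chr11:120824548-120824797, minus strand: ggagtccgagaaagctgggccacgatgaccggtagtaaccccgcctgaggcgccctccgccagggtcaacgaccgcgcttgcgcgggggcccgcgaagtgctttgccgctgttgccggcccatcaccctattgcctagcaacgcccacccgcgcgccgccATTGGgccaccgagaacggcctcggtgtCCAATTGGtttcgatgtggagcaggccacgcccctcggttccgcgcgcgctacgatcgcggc

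CCAAT occurred 1 time in Slc25a1, 1 time in Acacb, 2 times in Elovl5 and 3 times in Fasn, where 2 matches on opposite strands overlap. Fasn thus carries more copies than any of the 3 lower genes shown, in the window searched. Those were picked for having a match, so the counts do not compare Fasn with the members called lower. CACGTG occurred 1 time each in Slc25a1 and Elovl5, and GGGCGG 4 times in Slc25a1. Over the 36 promoters of 25 members, 47.2% held CCAAT, beside 33.8% of all 32851 promoters, 11.1% held CACGTG, beside 6.0%, and 55.6% held GGGCGG, beside 32.7%. The sterol element TCACNCCAC occurred in 1 of the 36, beside 1.05% of all promoters. A match describes letters in this window and not a bound site.

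The mutant livers differed among themselves. Of the 31 members, 14, 18, 12, 17 and 12 lay below every control in mutant replicates 1 to 5, which is 45.2%, 58.1%, 38.7%, 54.8% and 38.7% of members. The same shares over all genes were 30.1%, 33.2%, 34.8%, 35.7% and 14.5%. Mutant replicate 5 thus had fewer genes below the controls over the whole array, but as many members as replicate 3. Above every control lay 22.6%, 16.1%, 19.4%, 16.1% and 6.5% of members in mutant replicates 1 to 5. The same shares over all genes were 21.9%, 24.8%, 20.8%, 26.1% and 20.6%. Mutant replicate 5 was the highest mutant for 5 of the 8 members called lower. Relative to the mean change in mutants 1 to 4, its own change ran from 0.28 for Scd1 to 0.81 for Me1 among these 8. The SD among mutants exceeded that among controls for 22 members (71.0%), beside 61.4% of all genes.

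**Figure D4:**
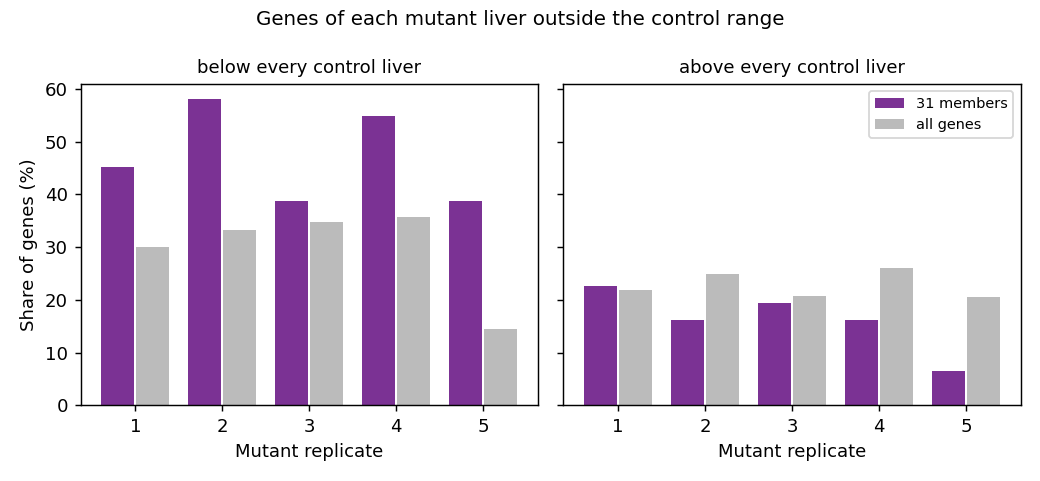
Share of genes in each mutant liver that lay below every control (left panel) or above every control (right panel), in percent, for the 31 members (purple) and all 12366 genes (grey). For genes below the controls, the members' bar is the taller one in all 5 mutant livers, with 38.7% against 14.5% in mutant replicate 5.

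Other genes of the pathway were taken from a list of 71, also drawn up with earlier results known, of which 60 were measured. Of these, 12 were lower (20.0%, beside 11.5% of all genes) and 5 were higher (8.3%, beside 8.62%), and 43 did not pass. In the supply of carbon and NADPH, 6 of 16 were lower and 1 was higher. Pklr, the liver pyruvate kinase and a classical ChREBP target, ran from 8.28 to 9.39 in mutants, against 9.57 to 10.57 in controls, a difference of -1.26 (SE 0.24, adjusted p = 0.0110). Khk, the ketohexokinase of fructose use, fell by 0.76 (SE 0.20, adjusted p = 0.0285), and its call was lost without mutant replicate 2 or 4 and without control replicate 1, 2 or 4, where the adjusted p reached 0.0623.

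Of 7 measured genes of the pentose phosphate pathway, the member Pgd among them, 3 fell, beside 11.5% of all genes. Pgls, the lactonase, ran from 8.74 to 9.30 in mutants, against 9.55 to 9.60 in controls, a difference of -0.57 (SE 0.09, adjusted p = 0.00734). Rpe, the ribulose phosphate epimerase, differed by -0.53 (SE 0.10, adjusted p = 0.0115), and Tkt, the transketolase, by -0.33 (SE 0.08, adjusted p = 0.0239). The Tkt call was lost without mutant replicate 4 and without control replicate 2 or 4, with adjusted p from 0.0516 to 0.0561. The other 4, which did not pass, were Taldo1 (-0.09), Rpia (-0.03), H6pd (0.11) and Pgd (0.21). Pdha1, a subunit of pyruvate dehydrogenase, differed by -0.27 (SE 0.07, adjusted p = 0.0226), and it did not pass with the array median (adjusted p = 0.103) or 75th percentile (0.0664) subtracted. Its call was also lost without mutant replicate 2 or 4 and without control replicate 3, where the adjusted p reached 0.0548. Idh2, the mitochondrial NADP-dependent isocitrate dehydrogenase, had the opposite direction. It stood at 10.43 to 11.63 in mutants, against 9.97 to 10.40 in controls, a difference of 1.04 (SE 0.21, adjusted p = 0.0128), and the mutant nearest the controls was replicate 5. Its other probe set gave a difference that rounds to 0.

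Among the other genes of elongation 1 of 8 fell, and among those of desaturation 2 of 4 fell and 1 rose. Hsd17b12, the ketoacyl reductase of the elongation cycle, ran from 11.28 to 12.22 in mutants, against 12.43 to 12.66 in controls, a difference of -0.76 (SE 0.17, adjusted p = 0.0168). Cyb5r3 and Cyb5b, a cytochrome b5 reductase and the outer mitochondrial cytochrome b5, differed by -0.58 (SE 0.11, adjusted p = 0.0111) and, for Cyb5b, -0.89 (SE 0.17, adjusted p = 0.0115). Cyb5a, the microsomal cytochrome b5 that passes electrons to desaturases, differed by 0.01 and did not pass. Fads6, a desaturase-like gene, rose by 0.40 (SE 0.09, adjusted p = 0.0193).

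In triglyceride handling, Bscl2, which encodes the lipid droplet protein seipin, fell by 0.81 (SE 0.15, adjusted p = 0.0110), and Mttp, which loads triglyceride onto apolipoprotein B, rose by 0.61 (SE 0.11, adjusted p = 0.00859). Mttp ran from 12.58 to 13.02 in mutants, against 12.16 to 12.54 in controls. Bscl2 and Mttp were the only calls among 12 other genes of triglyceride assembly. That is 8.3% lower and 8.3% higher, beside 11.5% and 8.62% of all genes. Among 14 regulators, 2 rose (14.3%, beside 8.62% of all genes) and 1 fell (7.1%, beside 11.5%). Prkaa1, a catalytic subunit of AMPK, the kinase that inhibits both carboxylases, rose by 0.40 (SE 0.09, adjusted p = 0.0169). Prkaa2, the other catalytic subunit of the same kinase, fell by 0.45 (adjusted p = 0.0486). Mbtps2, a protease that releases SREBP from the membrane, rose by 0.42 (SE 0.12, adjusted p = 0.0384). The Mbtps2 call was kept in 3 of the 10 fits that left out 1 array (adjusted p up to 0.0793 in the rest). Mecr, a reductase of mitochondrial fatty acid synthesis, differed by -0.34 (adjusted p = 0.0361). Prkaa2 and Mecr were named after their values had been seen, and their results under the alternatives are not given here. Each has 3 probe sets, which ran from -0.64 to -0.28 for Prkaa2 and from -0.34 to -0.11 for Mecr.

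**Figure D5:**
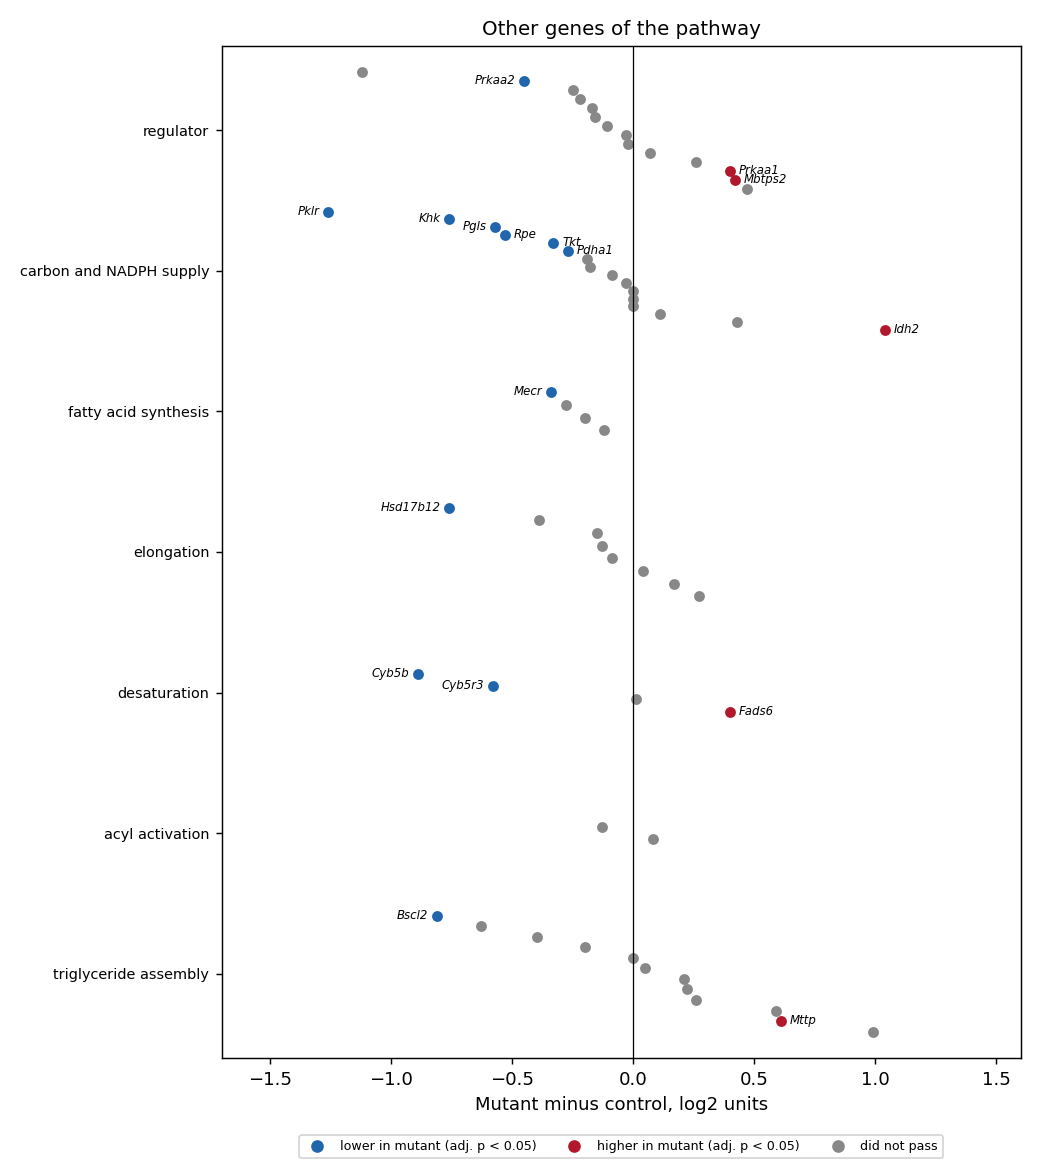
Difference between mutant and control liver (horizontal axis, log2 units) for the 60 measured genes of the pathway outside the member list, 1 point a gene, grouped by role. Blue marks the 12 called lower, red the 5 called higher and grey the 43 that did not pass; called genes are named.

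Markers of other liver cells moved in the same livers. Over all genes, 8.62% were called higher and 11.5% lower. Of 9 measured Kupffer cell and macrophage markers, 7 were higher, and their mean ran from 10.09 to 10.62 in mutants, against 9.08 to 10.04 in controls. Of 7 stellate cell markers, 5 were higher, with means from 10.32 to 10.83 in mutants, against 9.81 to 10.08 in controls. Of 7 hepatocyte markers, 0 passed by limma and 2 had an unadjusted p under 0.05, and the mean of the 7 ran from 15.06 to 15.31 in mutants, against 14.90 to 15.35 in controls. Pck1 (0.46, 15.29 to 15.66 in mutants, against 14.40 to 15.25 in controls) and Apoa1 (-0.09, 16.28 to 16.38, against 16.40 to 16.50) moved in opposite directions without overlap. Their adjusted p by limma was 0.0722 and 0.129. Mutants lay above all controls for 6.17% of all genes and below all controls for 6.99%. Alb, Ttr and Apoa1 lay between 16.04 and 16.50, beside a highest array value of 16.65. Endothelial markers had 1 lower of 7, and 0 of 5 biliary, 1 erythroid and 2 lymphocyte markers passed by limma, with 1, 0 and 1 at an unadjusted p under 0.05. Fabp4 was the single adipocyte marker measured, from 9.43 to 10.08 in mutants, against 9.61 to 10.46 in controls. No marker lay under 3.6 on all arrays, but the biliary markers Cftr, Krt7 and Krt19 did so on 9, 8 and 1 of the 10 arrays. The part of these cells in the differences of Acsl4 and Agpat1 was not tested.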

How the data were processed

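The values are log2 signals of probe sets, as the authors deposited them in 1 table. The scale was read from the values (0.27 to 16.65, array medians 6.40 to 6.67), and neither labels nor headers used here name the background correction, scaling or summary method. Per the labels' protocols, total RNA was amplified and labelled with biotin. After 37 control probe sets were left out, 21613 of 25995 probe sets carried 1 symbol, 638 several and 3707 none. Symbols were checked by gene identifier, which changed 0 of them, and 61 identifiers had no match. The probe set with the highest mean represented each of 12366 genes.

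Groups came from sample titles. Mutant minus control was fitted in limma 3.58.1 (R 4.3.3; lmFit, then eBayes), two-sided, without a block, and every adjusted p comes from it. Intervals are 95% limits from the same model. The p-values reflect only variation among these animals' samples, and precision is limited by 5 arrays a group. Arrays correlated from 0.970 to 0.993, and 0 pairs were identical. The test was tried on simulated data before use.

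The members and lists were chosen with earlier results of these data known. Values of every liver are given for members that passed and for Fasn, Acaca, Acly, Srebf1, Mlxipl and, added after its values were seen, Acss2. Other pathway genes that passed are named up to 10 in each direction by smallest p. Alternatives covered scaling, dim genes, low values, probe set choice, eBayes options, array weights, Y-linked signal, a replicate block and each array left out.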

Additional observations from a re-analysis of the deposited data

Results flagged for a closer look

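Values that stood far from the others of their group were sought among the 5 livers of each group, for the 31 members and 15 other pathway genes, by the gap to the nearest value over the range of the group. Of 92 groups, 3 held such a value, and chance gives about 1 in 20 groups. Agpat1 in mutant replicate 5 was 4.79, against 6.02 to 6.44 in the other mutants. Idh2 in mutant replicate 5 was 10.43, against 11.34 to 11.63 in the other mutants. Elovl1 in control replicate 5 was 10.32, against 9.77 to 9.88 in the other controls.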

How the results depend on the processing

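Across the 21 alternatives, Slc25a1, Me1 and Scd1 kept their direction and passed in every one (adjusted p up to 0.0338, 0.0273 and 0.0303), as did Acacb in the 20 that tested it (up to 0.0239). Acacb, Elovl3, Agpat1, Scd2 and Acsl3 were not tested with dim genes left out. Calls were lost or turned for Elovl5 in 12 alternatives, Fads1 in 13, Agpat3 in 12, Acsl4 in 12 and Elovl3 in 4. The median difference of the members stayed between -0.30 and -0.18. Without 1 array, 4 to 10 members were lower and 1 to 4 higher, 764 to 2160 of all genes were lower and 627 to 1371 higher, and 7 to 17 other pathway genes were lower. The 10 lower and 4 higher members were those without mutant replicate 5, with 17.5% and 11.1% of all genes. With low values raised to the 25th percentile, 5 members were lower and 1 higher. The number of higher members was 1 with dim genes left out, with the mean of all probe sets and with the most variable probe set. With array weights 8 other pathway genes were higher. With the replicate block 0 members were higher (Agpat1 adjusted p = 0.0521, Acsl4 0.0817) and 7 lower. Among the 15 other pathway genes followed through the alternatives, Khk (0.0672), Tkt (0.0841) and Prkaa1 (0.0523) also lost their calls with the block. Same-numbered livers correlated between -0.18 and 0.09 in their deviations, so the numbers were not treated as pairs. Signs turned for differences near 0. Acsl3 was 0.02 with quantile normalization, 0.01 and 0.03 with the array median and 75th percentile subtracted, 0.05 with the mean of probe sets, 0.13 with array weights, 0.0005 with Y-linked signal and -0.13 to 0.15 without 1 array. Fasn was 0.02 with array weights and -0.30 to 0.12 without 1 array. Fads2 and Acsl4 were -0.13 and -0.26 on their most variable probe sets, and Fads2 was -0.05 to 0.17 without 1 array. The cause of these shifts was not tested. Signals near the low end of the arrays, as for Agpat1 in controls and Elovl3 in 1 mutant, limit the size of their differences.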
